A study of Mus musculus with 6 samples.

Results

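Acetylcholine receptor genes were compared between RNA bound to tagged ribosomes and whole cortex RNA of the mouse. They were 9 genes, the muscarinic receptor genes Chrm1, Chrm2, Chrm3 and Chrm4 and the nicotinic subunit genes Chrna3, Chrna4, Chrna5, Chrna7 and Chrnb2. Members were found by the single gene symbol that the platform annotation gives a probe set. That gave 17 probe sets for 8 of the 9 genes, among 18193 genes with such a probe set on the array, and Chrm2 was not analysed here.

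The 6 Affymetrix arrays held 3 TRAP samples and 3 unbound samples. TRAP, translating ribosome affinity purification, pulls down tagged ribosomes with the mRNA they carry. The animals were untreated BAC transgenic mice of line ES691, in which S100a10 is the driver, backcrossed for 3 to 5 generations from FVB to C57BL/6. TRAP and unbound RNA came from cortex of the same line, so both groups carry the transgene. The unbound RNA is the flow-through of whole cortex lysate, which sample titles call input. No age or number of animals is given. The limma p-values rest on samples labelled as biological replicates, with each gene's spread drawn towards that of all genes. The series text states that this BAC also labels some non-neuronal cells, so TRAP values cover every labelled cell.

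Acetylcholine in the cortex comes largely from basal forebrain axons. Muscarinic receptors are G protein-coupled: Chrm1 and Chrm3 encode receptors that act through Gq and phospholipase C, and Chrm2 and Chrm4 encode receptors that act through Gi and Go. Nicotinic receptors are ion channels of several subunits: Chrna4 and Chrnb2 encode the main heteromeric channel of the brain, Chrna5 an accessory subunit of it, Chrna7 a channel of a single kind of subunit, and Chrna3 a subunit best known from autonomic ganglia.

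Chrna7, Chrna4 and Chrnb2 were lower in TRAP RNA, and Chrna7 and Chrna4 had the larger differences. The Chrnb2 call held in only 10 of 19 alternative settings. Of the 8 genes with a probe set, 4 had a mean intensity of at least 50 in at least 1 group, the level limit that the series text recommends. Those 4, Chrna7, Chrna4, Chrnb2 and Chrm1, were above it in both groups. By limma with Benjamini-Hochberg adjustment over 12070 genes, 3 of them passed as lower and 0 as higher at an adjusted p under 0.05. None was higher at an unadjusted p under 0.05 either. Of all genes tested 45.7% were called lower and 23.3% higher, and the count of 3 in 4 receptor genes is read against that 45.7%. After median centring 33.2% of all genes were called lower. Upward calls then made up 50.6% of all calls, against 33.8% before. The median log2 difference of all genes was -0.21, against which each value below can be set. In such bulk RNA, fewer cells of a type and less RNA per cell cannot be told apart.

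**Figure D1:**
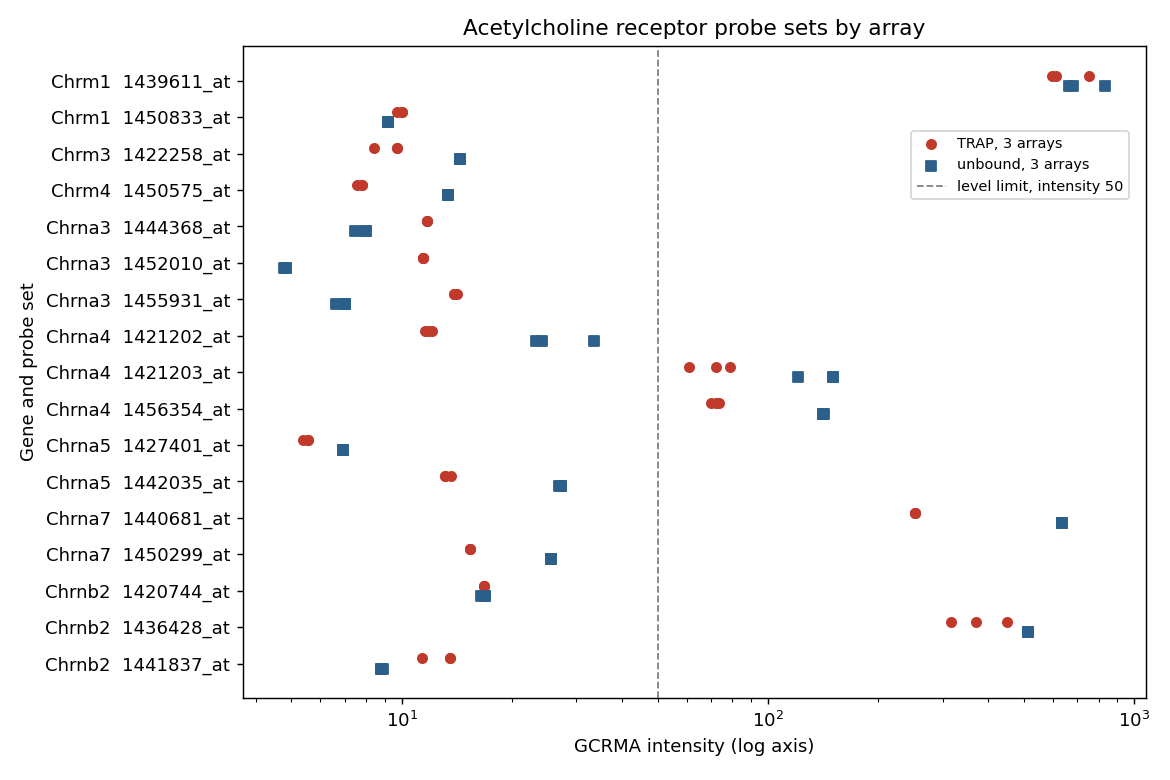
GCRMA intensity on a log axis for each of the 17 receptor probe sets on every array, TRAP as circles and unbound as squares, with the level limit of 50 dashed. For Chrna7 and Chrna4, each TRAP array lies below each unbound array in every probe set, while 12 probe sets lie under 50 in both groups.

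The upstream sequences of the 3 genes that passed as lower are shown because these genes moved in the same direction. They are the 250 bases before the RefSeq start site on GRCm38.p6, given 5′ to 3′ on the gene's strand. Capitals mark the GC box GGGCGG or its reverse complement, bound by Sp1-type factors, and the E-box palindrome CACGTG, bound by basic helix-loop-helix factors. Chrna7 lies at chr7:63212527-63212776, Chrna4 at chr2:181039178-181039427 and Chrnb2 at chr3:89764633-89764882, each on the minus strand.
Chrna7: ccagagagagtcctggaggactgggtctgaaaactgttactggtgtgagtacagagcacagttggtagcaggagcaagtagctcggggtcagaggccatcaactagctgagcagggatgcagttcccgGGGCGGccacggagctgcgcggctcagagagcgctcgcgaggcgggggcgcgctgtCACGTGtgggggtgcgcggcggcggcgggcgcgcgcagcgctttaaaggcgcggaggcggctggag
Chrna4: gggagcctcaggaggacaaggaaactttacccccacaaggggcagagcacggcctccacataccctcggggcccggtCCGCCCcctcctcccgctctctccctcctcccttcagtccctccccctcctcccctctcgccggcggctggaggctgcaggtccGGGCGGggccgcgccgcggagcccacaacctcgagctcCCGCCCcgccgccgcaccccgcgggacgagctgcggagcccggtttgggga
Chrnb2: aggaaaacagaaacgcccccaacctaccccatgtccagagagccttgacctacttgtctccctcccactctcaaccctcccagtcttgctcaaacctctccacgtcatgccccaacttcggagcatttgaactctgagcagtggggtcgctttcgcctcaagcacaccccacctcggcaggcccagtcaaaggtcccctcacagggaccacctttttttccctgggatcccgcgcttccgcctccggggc

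The Chrna7 sequence held 1 GC box and 1 E-box palindrome, the latter beginning 66 bases before the start site. Chrna4 held 3 GC boxes and no such E-box, and Chrnb2 held neither. Searched on both strands with no overlap between these motifs, the GC box occurred in 32.7% and the palindrome in 6.02% of 32851 upstream windows of the same length. The windows of Chrna7 and Chrna4 held 25 and 24 CpG dinucleotides and that of Chrnb2 held 10, with a median of 6 over all windows. The TATA motif TATAAA, present in 12.4% of windows, was in none of the 3. The RefSeq table held windows for 8 of the 9 genes and Chrm1 was not matched. These matches describe the letters only, and no binding was measured.

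Chrna7, the gene of the alpha7 channel, had the largest difference. Its main probe set measured 252 on TRAP arrays 1, 2 and 3, and 635, 634 and 634 on the unbound arrays. The groups did not overlap, as for 49.6% of all genes in the same direction. The log2 difference was -1.33 (SE 0.02, 95% interval -1.39 to -1.27), 2.52-fold lower in TRAP RNA (limma adjusted p = 2.5e-06). It also passed limma's test against a 2-fold change (adjusted p = 4.1e-04). After median centring it was -1.12. The other probe set lay under the level limit at 15.3 on each TRAP array and 25.6 on each unbound array.

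The 3 TRAP arrays gave exactly the same value in both Chrna7 probe sets, so the SE above holds no spread among TRAP arrays. The unbound SD of the main probe set was 0.667 at a mean of 635. The SE therefore came mostly from the spread that limma borrows from all genes, not from these replicates. Among kept probe sets 33.7% repeated a value within the TRAP group and 35% within the unbound group. Median polish in GCRMA can give repeated values, and its part here was not tested. Chrna7, Chrna4 and Chrnb2 each rest on a probe set with at least 2 equal values in a group, and Chrm1 does not.

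Chrna4, the alpha4 subunit, was lower by about the same amount in both probe sets above the level limit. Its main probe set measured 69.8, 72.1 and 73.6 on the TRAP arrays and 141, 142 and 141 on the unbound arrays. All TRAP values lay below all unbound values. The log2 difference was -0.98 (SE 0.03, 95% interval -1.06 to -0.90), 1.97-fold lower (limma adjusted p = 1.2e-05), and -0.77 after median centring. The second kept probe set measured 60.9, 78.6 and 72.2 against 121, 150 and 150, a difference of -0.99 (limma adjusted p = 0.0021 over probe sets). The third lay under 50 at 11.5, 12.1 and 11.8 against 23.2, 33.6 and 24.1, and no fold was read there.

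Chrnb2, the beta2 subunit that assembles with alpha4, had a smaller difference, whose call was not stable. Its main probe set measured 315, 449 and 370 on the TRAP arrays and 512 on each of the 3 unbound arrays. The TRAP values spread widely and all lay below the single unbound value. The log2 difference was -0.45 (SE 0.13, 95% interval -0.79 to -0.11), 1.37-fold lower (limma adjusted p = 0.030). It was -0.24 after median centring (adjusted p = 0.14) and -0.20 after quantile normalisation (adjusted p = 0.23), not called in either. Centring on the median of all probe sets left a difference of -0.02 (limma adjusted p = 0.91). Leaving out TRAP replicate 3 or any 1 of the unbound arrays also ended the call, at adjusted p from 0.081 to 0.085. The other 2 probe sets lay under 50. In the first the values were 16.8 on each TRAP array against 16.5, 16.9 and 16.9, and in the second they were 11.3, 13.5 and 13.5 against 8.90, 8.80 and 8.80.

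Chrm1, the main muscarinic receptor of cortical pyramidal neurons, was not called in the unpaired fit. Its main probe set measured 598, 612 and 753 on TRAP arrays 1, 2 and 3 and 682, 664 and 830 on the unbound arrays of the same numbers. The groups overlapped, while within each number the TRAP value was the lower. The log2 difference was -0.15 (SE 0.13, 95% interval -0.49 to 0.19, limma adjusted p = 0.36). With the replicate number as a block it passed as lower (limma adjusted p = 0.028). In the 3 pairs the difference was -0.19, -0.12 and -0.14, and the median of all genes in those pairs was -0.22, -0.18 and -0.22. After median centring the Chrm1 difference was 0.06, with adjusted p = 0.70 unpaired and 0.42 with the block. Its other probe set lay under the limit at a mean of 9.92 ± 0.192 (SD, n = 3) against 9.20 on each unbound array.

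**Figure D2:**
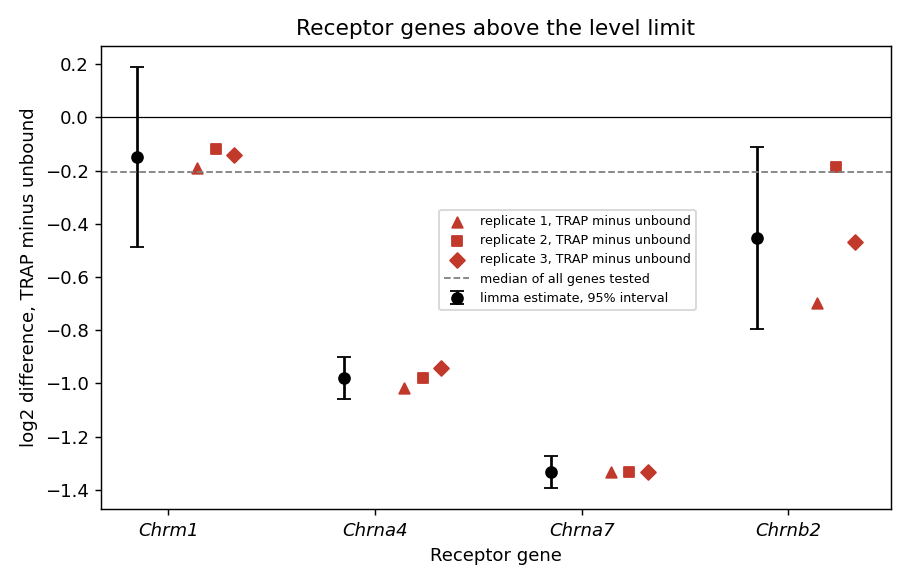
Log2 difference, TRAP minus unbound, for the 4 receptor genes above the level limit, with the limma estimate and its 95% interval in black and the 3 same-numbered pairs in red. The pairs of Chrm1 lie between -0.19 and -0.12, beside the dashed median of all genes at -0.21, and the pairs of Chrna7 at -1.33.

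The order of the differences was Chrna7, Chrna4, Chrnb2 and Chrm1, from -1.33 to -0.15. Neighbours in this order were compared within arrays, where the scaling of an array cancels. Of 8 pairs of receptor genes fixed for this, 2 had both genes above the level limit. Chrna7 relative to Chrna4, as a log2 ratio of their probe sets, was 1.85, 1.81 and 1.78 on the TRAP arrays and 2.17, 2.16 and 2.17 on the unbound arrays, so it was lower by a log2 difference of -0.35 in TRAP RNA. Chrna4 relative to Chrnb2 was -2.17, -2.64 and -2.33 on the TRAP arrays and -1.86, -1.85 and -1.86 on the unbound arrays, a log2 difference of -0.53. In both pairs the groups did not overlap, and how often pairs of other genes do so was not tested. The two-sided exact permutation p was 0.1 for each pair, also after adjustment over the 2 pairs, and 0.1 is the smallest p that 3 against 3 arrays can give. Chrnb2 and Chrm1 were not among the fixed pairs, and their 95% intervals overlap.

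The other 4 receptor genes, Chrm3, Chrm4, Chrna3 and Chrna5, lay under the level limit in all 7 of their probe sets. Their values are given as listed, since near background a ratio is imprecise. Chrm3 measured 8.40, 9.70 and 9.70 on the TRAP arrays and 14.4 on each unbound array. Chrm4, a Gi-coupled receptor gene abundant in striatum, measured 7.55, 7.77 and 7.77 against 13.4 on each unbound array. Both were listed lower on every TRAP array than on any unbound array, as were 49.6% of the genes that reach the level limit.

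Chrna5, known from deep-layer cortical neurons, measured 13.7, 13.1 and 13.1 on the TRAP arrays against 27.2, 27.2 and 27.0 in the brighter of its probe sets. In the other it measured 5.37, 5.53 and 5.53 against 6.93 on each unbound array. Chrna3 was listed higher on every TRAP array in each of its 3 probe sets. Among the genes tested, which reach the level limit and do not include Chrna3, 25.9% had every TRAP array above every unbound array. Chrna3 measured 11.7 on each TRAP array against 8.01, 8.01 and 7.43 in the first, and 11.5 on each against 4.83, 4.83 and 4.77 in the second. In the third it measured 13.9, 13.9 and 14.2 against a mean of 6.88 ± 0.211 (SD, n = 3). Chrna3 and Chrna5 are neighbours in the genome, in a cluster with Chrnb4. Without a level limit limma called Chrm3, Chrm4 and Chrna5 lower and Chrna3 higher. In that run 8354 of 18193 genes were called lower (45.9%) and 4797 higher. Values near background that repeat within a group leave little spread, so nothing was read from these calls.

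Further receptor genes were also near background. Of 12 other muscarinic and nicotinic receptor genes listed, 10 had a probe set and none reached the limit, with values from 4.15 to 26.6 over 16 probe sets. Chrnb1, the beta1 subunit of muscle, was listed at 17.7, 18.4 and 18.4 on the TRAP arrays against 5.53, 5.53 and 5.37. Chrnb4, the beta4 subunit of ganglia, was listed at 5.97, 6.13 and 6.13 against 19.2, 18.3 and 18.3 in 1 of its probe sets. Both were named after their values were seen. Without a level limit limma called Chrnb1 higher and Chrnb4 lower, and nothing was read from these calls for the same reason.

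Among genes that make, carry or break down acetylcholine, butyrylcholinesterase was higher in TRAP RNA. All 7 listed genes had a probe set and 3 were above the level limit, of which 1 was higher and 0 lower, beside 23.3% and 45.7% of all genes. Bche measured 102, 95.2 and 82.8 on the TRAP arrays against 20.3 on each unbound array. The groups did not overlap, but the unbound values lie under the level limit, so Bche was tested only through its TRAP level. With values under 50 raised to 50 the log2 difference was 0.90 (limma adjusted p = 5.9e-04), against 2.20 (adjusted p = 2.2e-05) on the values as listed. Its other 2 probe sets lay under 50, with means of 13.8 and 18.4 against 9.33 and 16.9. Ache, the main synaptic acetylcholinesterase, measured 260, 374 and 278 against 191, 260 and 274 (log2 0.33, adjusted p = 0.21). Ache passed as higher after median centring (0.54, adjusted p = 0.048). Chat, the synthetic enzyme and defining marker of cholinergic neurons, was at 4.67 on each TRAP array and 4.67, 4.67 and 4.57 on the unbound arrays. The choline transporter gene Slc5a7 had means of 4.57 and 5.63. The vesicular transporter gene Slc18a3 measured 16.1, 16.7 and 14.3 against 5.33 on each unbound array, under the limit.

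Among genes of nicotinic receptor assembly and of the Ly6-type proteins that bind these receptors, 3 of 8 tested passed as lower and 1 as higher, against 45.7% and 23.3% of all genes, and the median log2 difference was -0.55. With the replicate block 5 passed as lower, while 48% of all genes were lower in that fit. Lypd6 had the largest difference of them, at 351, 334 and 326 on the TRAP arrays against 805, 805 and 785 (log2 -1.25, SE 0.04, limma adjusted p = 1.1e-05). A second kept Lypd6 probe set differed by -1.19, and the remaining one lay under the limit. Lypd1 differed by -0.61 (limma adjusted p = 1.4e-04) and by -1.81 in its second kept probe set. Lypd6b differed by -0.53 (limma adjusted p = 0.010), a call lost after quantile normalisation (adjusted p = 0.058).

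Ly6e was higher, at 6026, 5936 and 6929 on the TRAP arrays against 3205, 3677 and 5159 (log2 0.68, limma adjusted p = 0.027). That call was lost when any 1 of the 3 TRAP arrays, unbound replicate 1 or unbound replicate 2 was left out, with adjusted p between 0.062 and 0.087. Its other probe set, under the limit, went the opposite way at means of 18.2 and 48.8. The chaperone genes Ric3 and Tmem35a, which help nicotinic subunits assemble, had differences of -0.56 and -0.73 and were not called (limma adjusted p = 0.066 and 0.084). With the replicate block both passed as lower (adjusted p = 0.014 and 0.0053). A second kept Ric3 probe set differed by 0.04. Lynx1, a Ly6-type protein that damps nicotinic receptors, differed by -0.09 (adjusted p = 0.27).

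**Figure D3:**
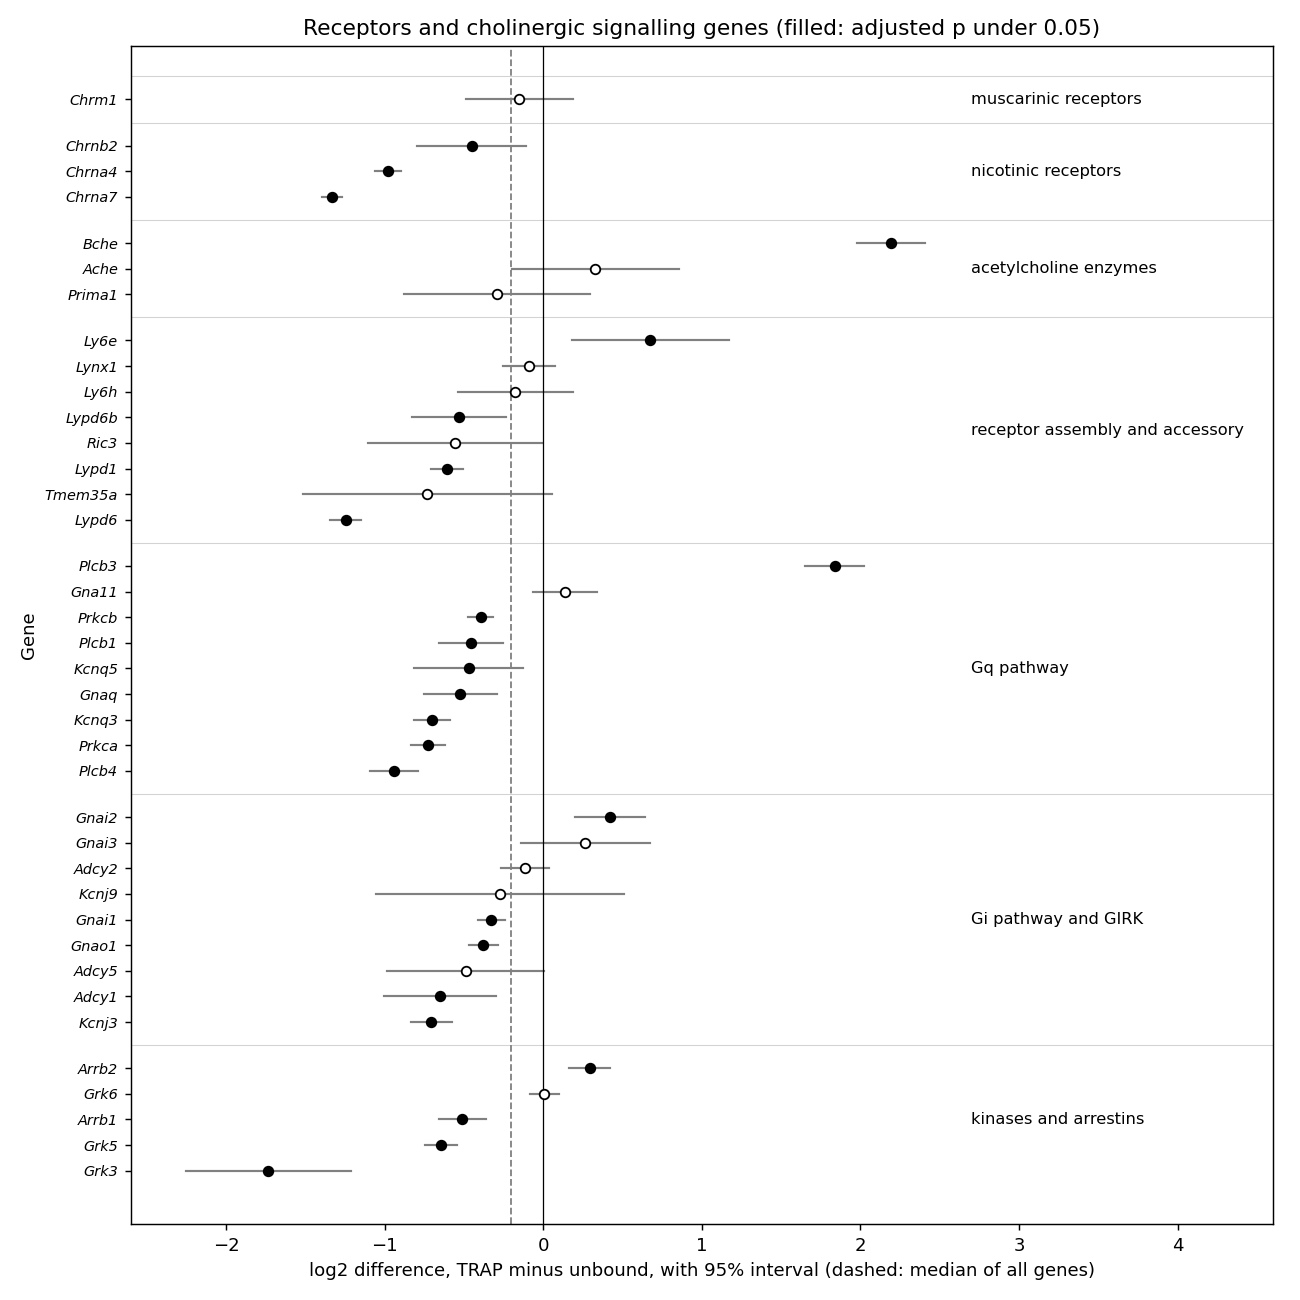
Log2 difference, TRAP minus unbound, with its 95% interval, for the receptor genes and the cholinergic signalling genes above the level limit, grouped by role. Filled points passed limma's test at an adjusted p under 0.05, and the dashed line is the median of all genes at -0.21. Bche and Plcb3, drawn at 2.20 and 1.84, have unbound values under the level limit and differ by 0.90 and 1.51 with values under 50 raised to 50.

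Genes of the Gq pathway, which Chrm1 and Chrm3 use, were lower in 7 of 9 tested and higher in 1, with a median of -0.47, beside 45.7% and 23.3% of all genes. Several of these calls were not stable. Centring on the median of all probe sets ended those of Gnaq, Plcb1, Prkcb and Kcnq5, with 22.3% of all genes lower in that run. The Plcb1 call was also lost on the mean of its kept probe sets (-0.23, limma adjusted p = 0.37). After median centring 6 were lower and 2 higher, beside 33.2% lower and 4105 of 12070 higher among all genes. Plcb4, a phospholipase C gene, measured 1286, 1275 and 1244 on the TRAP arrays against 2621, 2285 and 2404 (log2 -0.94, SE 0.06, limma adjusted p = 1.1e-04). Prkca, a protein kinase C gene, differed by -0.73 (limma adjusted p = 8.1e-05), and by -0.14 in a second kept probe set (limma adjusted p = 0.014 over probe sets). Kcnq3, a subunit of the M-current channel that muscarinic receptors close, differed by -0.70 (limma adjusted p = 1.2e-04). A second Kcnq3 probe set at a lower level differed by 0.38 in the opposite direction (limma adjusted p = 0.034 over probe sets), and the mean of both was not called (-0.16, adjusted p = 0.096). Plcb3, another phospholipase C gene, was higher at 150, 151 and 128 against 39.8 on each unbound array. The unbound value is under the level limit, and with values under 50 raised to 50 the log2 difference was 1.51 (limma adjusted p = 6.4e-05), against 1.84 as listed.

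Genes of the Gi pathway and of its potassium channels were lower in 4 of 9 tested and higher in 1, with a median of -0.33, and the share lower is close to the 45.7% of all genes. After median centring 3 were lower and 2 higher, beside 33.2% lower and 4105 of 12070 higher among all genes. With the replicate block 7 of 9 were lower, the added genes being the adenylyl cyclase genes Adcy5 and Adcy2 and the channel gene Kcnj9 (limma adjusted p = 0.0063, 0.044 and 0.0094, against 0.072, 0.15 and 0.46 unpaired), while 48% of all genes were lower in that fit. Kcnj3, a subunit of the channel that Gi-coupled receptors open, measured 2387, 2647 and 2628 on the TRAP arrays against 4116, 4147 and 4221 (log2 -0.71, SE 0.05, limma adjusted p = 1.8e-04). Adcy1, an adenylyl cyclase gene, differed by -0.65 (limma adjusted p = 0.0098), and Gnao1, the Go alpha subunit, by -0.38 (limma adjusted p = 4.9e-04). The Gnao1 value depended on the probe set: a second kept one, at 28.5 on each TRAP array and so under the limit there, had an unbound mean of 113 and a listed difference of -1.99. With block and centring together the Gnao1 call was lost (-0.17, adjusted p = 0.055). Gnai2, a Gi alpha subunit, was higher by 0.42 (limma adjusted p = 0.0085).

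Among receptor kinases and arrestins, which switch off G protein-coupled receptors, 3 of 5 tested passed as lower and 1 as higher (median -0.51), beside 45.7% and 23.3% of all genes. Grk3 measured 815, 816 and 816 on the TRAP arrays against 3360, 1992 and 2974 (log2 -1.73, SE 0.20, limma adjusted p = 0.0011). The other 2 Grk3 probe sets each differed by -1.63. Grk5 differed by -0.64 (limma adjusted p = 1.1e-04), but a second kept probe set differed by -0.09 (limma adjusted p = 0.36 over probe sets) and the mean of both by -0.37. Arrb1 differed by -0.51 (limma adjusted p = 9.4e-04). Arrb2 was higher by 0.29 (limma adjusted p = 0.0050), but a second probe set differed by -0.04 and the call was lost on unmarked probe sets (adjusted p = 0.55).

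The profiles nearest to each receptor gene, by Euclidean distance of centred log2 values over the 6 arrays among 12069 other genes, were as follows. Chrna4 lay nearest to Grin2d, an NMDA receptor subunit gene (distance 0.029), and Chit1 (0.034). Chrna7 lay nearest to Pls1, a plastin gene (0.010), and Spry3, a sprouty gene (0.014). Chrnb2 lay nearest to Pcdhb12, a protocadherin gene (0.084), and Tmem81 (0.086), and Chrm1 to Tmem50b and Otub2 (0.10 each). With 2 groups of 3 arrays, such likeness mostly reflects an equal difference between the groups.

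Markers of several cell types also differed between TRAP and unbound RNA. The driver gene S100a10 was 5.86-fold higher in TRAP RNA (limma adjusted p = 8.3e-05). All marker counts here and below are read beside the 45.7% of all genes called lower and the 23.3% called higher. Pyramidal neuron markers were higher in 3 and lower in 4 of 9 tested (summed intensities 17298 to 17846 on the TRAP arrays against 18856 to 20840). Their share lower is close to that of all genes. Interneuron markers were lower in 9 and higher in 0 of 12, with summed intensities of 24042 to 30039 on the TRAP arrays against 51185 to 55117. Striatal markers were lower in 8 of 8 (summed 2638 to 4106 against 13445 to 13732). Of these, Drd2 and Pdyn had TRAP means under the level limit, at 37.0 and 11.8, and so could only come out lower. Tac1, at a mean of 955 against 5867, is counted in both the striatal and the interneuron list. Oligodendrocyte markers were lower in 8 of 9 (9127 to 14741 against 52634 to 58300), astrocyte markers in 5 and higher in 3 of 10 (20375 to 24524 against 30657 to 40394), and microglial markers lower in 8 of 9 (546 to 794 against 1694 to 2246). Layer 2/3 markers were lower in 8 of 10 (11601 to 11987 against 23045 to 23183) and layer 6 and subplate markers in 7 and higher in 1 of 8 (6105 to 7214 against 9863 to 12348). Layer 5a markers were higher in 3 and lower in 4 of 7, with sums that overlap (3048 to 4180 against 3106 to 3366), and layer 5b markers higher in 3 and lower in 6 of 10 (38294 to 39528 against 46348 to 47365). Most of each layer 5b sum is Pcp4, which was called higher, at a TRAP mean of 30414 against 27325.

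Meningeal fibroblast markers were higher in 13 of 13 tested, with summed intensities of 72276 to 76408 against 7686 to 11237. Of these, Lum, Col3a1, Col1a2, Foxc1 and Foxc2 had unbound means under the level limit, from 6.26 to 47.5. They were tested only through their TRAP level and so could only come out higher. Mural cell markers were higher in 5 and lower in 2 of 8 (5904 to 7370 against 2894 to 3198) and endothelial markers higher in 3 and lower in 2 of 6 (5573 to 6270 against 1997 to 2168). Most of the endothelial TRAP sum is Itm2a, at a mean of 4088 against 467. Choroid plexus and ependymal markers were higher in 3 and lower in 1 of 5 (1122 to 1387 against 299.5 to 3108), where the TRAP and unbound sums overlap. With the replicate block 2 were lower, as were 48% of all genes. The spread of the unbound sums is mostly that of Ttr, with an unbound mean of 1040 ± 1599 (SD, n = 3). Some markers of other lists also reached the level limit in 1 group only, which fixed their direction. Among them were Kl, Kcnj13 and Abcb1a in TRAP RNA, and the microglial Gpr34, P2ry12, Cx3cr1, C1qa and C1qc in unbound RNA. Drd2, Pdyn, Gfap and Myrf also reached it in unbound RNA only. No value in the table is 0. The part of these cell types in the differences of the nicotinic genes, Bche and Plcb3 was not tested.

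**Figure D4:**
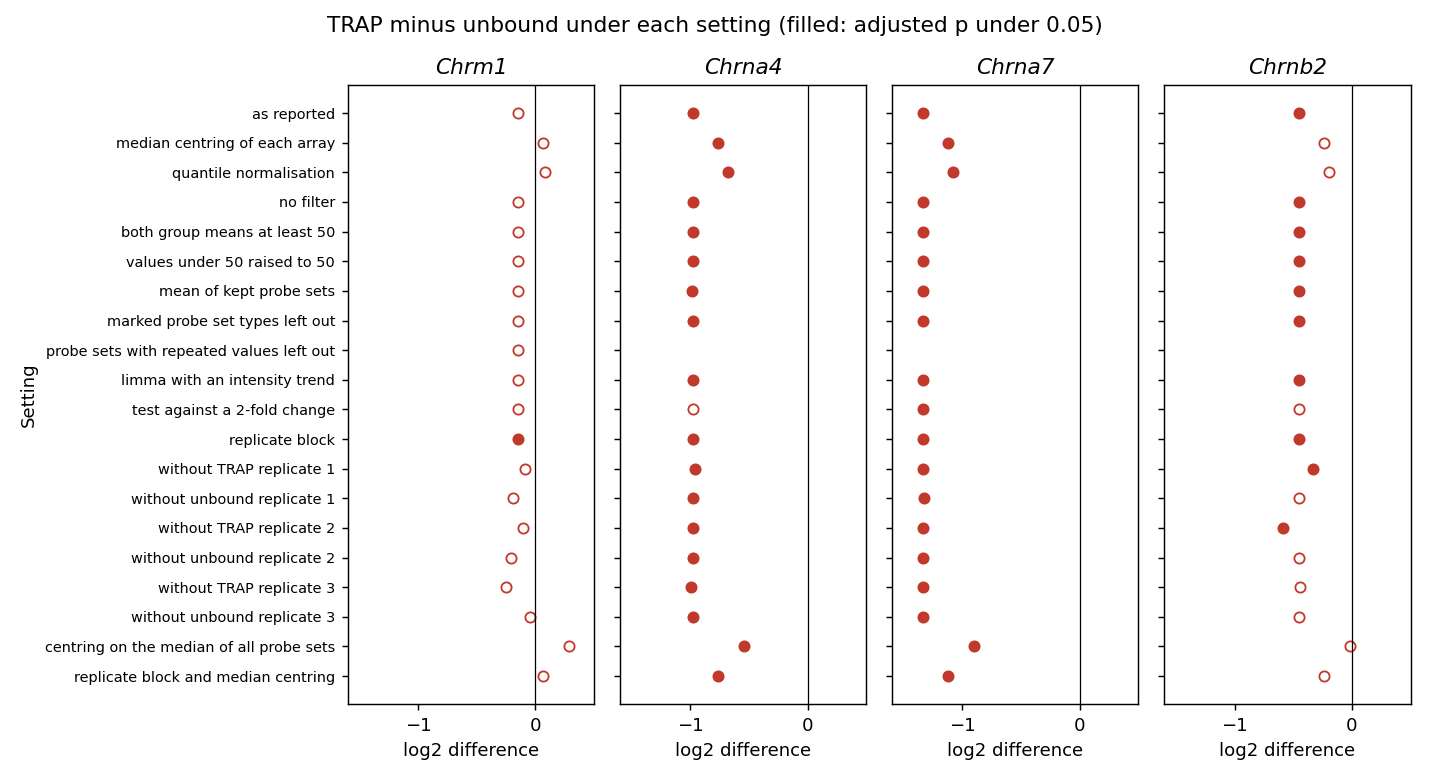
Log2 difference, TRAP minus unbound, of the 4 receptor genes under each setting of the analysis, filled where limma's adjusted p was under 0.05. Chrna7 stays between -1.33 and -0.90 and filled wherever it was tested, Chrna4 is open in the test against a 2-fold change, and Chrm1 crosses 0 with the scaling of the arrays.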

How the data were processed

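Gene expression was measured on 6 arrays of 45101 probe sets. Per the labels' protocols, ribosome-bound and unbound RNA was purified with Trizol-LS, DNase and a column, and 15 ng was amplified in 2 cycles. The authors' deposited table holds linear intensities from GCRMA, per the submitters' processing notes, which corrects background, quantile-normalises arrays and summarises probes by median polish. Its version, and whether the groups were processed together, are not given in the sources used here. Array medians ran from 31.4 to 31.8 for TRAP and from 42.4 to 43.1 for unbound RNA. The deposited values were thus not on a common median between the groups. The part of processing in the median log2 difference of all genes, -0.21, was not tested. The number of arrays limits the precision.

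Groups came from the sample labels, and 0 value columns were left unused. Of the probe sets, 34945 carry 1 gene symbol outside the controls, 932 several and 9211 none. RefSeq, by Entrez ID, changed 0 symbols. Probe sets with 1 symbol and a mean of at least 50 in 1 group or more were kept (20291), and the one with the highest mean stood for its gene (12070 genes). Log2 intensities, with no pseudocount, were fitted with limma 3.58.1 in R 4.3.3 (lmFit, eBayes, two-sided) with group as the only term and Benjamini-Hochberg adjustment over all genes. Folds are from mean log2 values. The fit was tested on simulated data with independent normal noise. Those data held no repeated values and no paired replicates, so the test does not cover these features of the arrays.

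Replicate numbers paired the samples: deviations from the group means correlated at 0.50, 0.46 and 0.37 across genes between TRAP and unbound arrays of numbers 1, 2 and 3. The block value is printed where it changes the call of a receptor or signalling gene.

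The members and lists were chosen with earlier results of these data known. The rule named every member, up to 4 called genes of each signalling list with the largest change, and the 2 nearest profiles. Genes named beyond it, such as Ache, Chat, Slc5a7, Slc18a3, Ric3, Tmem35a, Lynx1, Chrnb1 and Chrnb4, were chosen after their values were seen. Alternatives changed the scaling, level limit, probe set choice, error model and replicates. A centring on all probe sets, and the block with centring, were added after seeing the data.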

Additional observations from a re-analysis of the deposited data

How the results depend on the processing

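Chrna7 kept its direction and its call in each of the 19 alternatives where it was tested, with log2 differences from -1.33 to -0.90. Chrna4 did so in 18 of 19 (-0.996 to -0.546), the exception being the test against a 2-fold change. Chrna7 had equal TRAP values and nearly equal unbound values, so leaving out 1 array could hardly change its call. Neither gene was tested when probe sets with repeated values were left out. Chrnb2 was called in 10 of 19. Chrm1 turned from -0.15 to 0.062 after median centring, with and without the block, to 0.079 after quantile normalisation and to 0.28 after centring on the median of all probe sets. The count of receptor genes lower in TRAP RNA was 3. It was 6 with 1 higher when no level limit was set and 8 genes were tested, 1 in the test against a 2-fold change, and 0 of the 1 gene left, Chrm1, without probe sets holding repeated values. With the replicate block it was 4, the added gene being Chrm1. Leaving out each array in turn gave 2 to 3 lower and 0 higher. The 2 differences between receptor genes within arrays kept their direction in every alternative run, but most of these runs could not have changed it. The groups did not overlap in either pair, so leaving out an array could not reverse the sign. Raising low values and leaving out marked probe set types left both differences unchanged. With the mean of kept probe sets the differences were -0.347 (Chrna7 relative to Chrna4) and -0.534 (Chrna4 relative to Chrnb2), against -0.354 and -0.527.

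Over all genes, 2812 were higher and 5517 lower. The counts were 4797 and 8354 without a level limit, 4261 and 9458 over all kept probe sets, 1372 and 2734 without repeated values and 547 and 792 against a 2-fold change. They were 4409 and 4349 with block and centring, and 5713 and 2692 after centring on all probe sets, where the median of all genes was 0.23. Calls in the higher direction were 33.8% of all calls, and 50.6%, 50.8% and 68% after median centring, quantile normalisation and centring on all probe sets. Receptor genes under the level limit lie near background, where no fold was read.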
